A study of Homo sapiens with 6 samples.

Results

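Subtelomeric 6mA peaks are the regions of N6-methyladenine (6mA) enrichment that lay close to the ends of the chromosomes. They were taken as the peaks on chromosomes 1 to 22 whose summit, the position of highest signal, was within 3 Mb of an end of the chromosome in the human build hg19, without the short-arm ends of chromosomes 13, 14, 15, 21 and 22, which are the arms that carry the ribosomal DNA. This left 39 ends, 17 of short arms (p) and 22 of long arms (q), with 113.8 Mb of assembled sequence, or 4.24% of the assembled autosomes. Of the 143552 peaks in the 4 peak lists, 6627 were subtelomeric: 1443 of 30451 in control replicate 1, 1504 of 33410 in control replicate 2, 1821 of 38847 in si-N6AMT1 replicate 1 and 1859 of 40844 in si-N6AMT1 replicate 2.

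The lists came from 6mA-IP-seq, in which sheared genomic DNA is precipitated with an antibody to 6mA and sequenced of cells of the established breast cancer line MDA-MB-453. Both groups were transfected for 48 h with 10 nM siRNA, one targeting human N6AMT1, a putative 6mA methyltransferase (si-N6AMT1), and the other a scramble sequence (control), with 2 immunoprecipitated libraries per group, described in the study's methods as biological replicates. The knockdown was transient and made in a single line, and the peak lists hold no measure of how far N6AMT1 fell. The number of reads per library is not in the lists, so depth is known only through the background level that the peak caller used genome-wide, which was recovered as 1.05, 1.36, 1.41 and 1.53 fragments per position in the order control 1, control 2, si-N6AMT1 1 and si-N6AMT1 2. All values for the 4 libraries are given in that order.

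Human chromosomes end in arrays of the hexamer TTAGGG, which the assembly leaves out as gaps. Inside them lie the subtelomeres, patchworks of duplicated segments that chromosomes share, with short interstitial stretches of degenerate TTAGGG, and then gene-rich, GC-rich sequence that holds many minisatellites, tandem arrays of a longer unit. An antibody peak over such an array marks enriched fragments and does not say which adenines carry the methyl group. Reads from duplicated segments can align to more than one chromosome, and how these were placed is not given in the sources used here.

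The sequences below are 200 bp of the reference genome (GRCh37 assembly of hg19, forward strand, 5′ to 3′) centred on summits. They are examples and do not stand for all subtelomeric regions. All but the first 3 were added after values were seen. The first 3 are the regions called in all 4 libraries that ranked highest in their weakest library. In the first and second of them, blocks in capitals and lower case alternate by the lag at which the window best matched itself, 10 and 27 bp. In the one from chromosome 20 capitals mark 6 or more copies of TG or GT in a row.
5p, 151327 bp from IRX2, chr5:2594532-2594731: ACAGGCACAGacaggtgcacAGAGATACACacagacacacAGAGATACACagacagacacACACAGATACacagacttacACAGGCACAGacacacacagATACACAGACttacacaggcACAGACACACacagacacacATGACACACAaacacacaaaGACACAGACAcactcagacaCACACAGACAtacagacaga
5p, 305956 bp from IRX2, chr5:2439903-2440102: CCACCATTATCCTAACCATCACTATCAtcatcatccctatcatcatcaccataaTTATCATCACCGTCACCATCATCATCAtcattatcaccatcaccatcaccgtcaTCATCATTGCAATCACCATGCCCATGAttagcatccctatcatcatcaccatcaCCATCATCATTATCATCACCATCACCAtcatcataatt
20q, intron of MYT1, chr20:62784954-62785153: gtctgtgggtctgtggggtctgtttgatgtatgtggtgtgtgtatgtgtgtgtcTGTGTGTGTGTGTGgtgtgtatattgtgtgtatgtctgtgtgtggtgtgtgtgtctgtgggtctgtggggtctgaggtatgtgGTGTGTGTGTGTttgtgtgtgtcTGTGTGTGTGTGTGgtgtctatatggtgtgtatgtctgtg

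The next 3 are regions called in all 4 libraries with at least 2 copies of TTAGGG in a row at a summit, on either strand, which capitals mark (CCCTAA is the same hexamer on the other strand).
9q, intron of a non-coding gene, chr9:141127578-141127777: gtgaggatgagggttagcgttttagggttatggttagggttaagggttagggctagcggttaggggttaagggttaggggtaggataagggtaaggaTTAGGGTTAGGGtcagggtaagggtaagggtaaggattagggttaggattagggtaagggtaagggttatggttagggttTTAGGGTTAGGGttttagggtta
5p, 41943 bp from PLEKHG4B, chr5:50240-50439: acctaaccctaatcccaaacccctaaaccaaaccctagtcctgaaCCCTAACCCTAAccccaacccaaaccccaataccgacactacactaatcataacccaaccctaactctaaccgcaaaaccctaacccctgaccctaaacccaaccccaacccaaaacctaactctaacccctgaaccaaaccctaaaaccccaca
2q, intron shared by CAPN10 and GPR35, chr2:241553188-241553387: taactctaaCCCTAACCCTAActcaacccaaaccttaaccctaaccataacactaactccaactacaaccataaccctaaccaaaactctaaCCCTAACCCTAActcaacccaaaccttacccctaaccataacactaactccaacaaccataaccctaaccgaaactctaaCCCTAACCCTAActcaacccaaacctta

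The last 3 are tandem-repeat summits whose lag of best match was 20, 24 and 56 bp, and capitals and lower case alternate by that lag. The lag need not be the repeat unit, since short words recur within it.
9q, 6491 bp from TMEM250, chr9:139017112-139017311: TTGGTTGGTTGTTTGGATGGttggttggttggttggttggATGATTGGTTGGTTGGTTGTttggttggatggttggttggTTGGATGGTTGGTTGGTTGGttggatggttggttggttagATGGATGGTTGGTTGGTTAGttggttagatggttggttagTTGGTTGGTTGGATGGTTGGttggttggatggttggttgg
5p, 273477 bp from IRX4, chr5:2160727-2160926: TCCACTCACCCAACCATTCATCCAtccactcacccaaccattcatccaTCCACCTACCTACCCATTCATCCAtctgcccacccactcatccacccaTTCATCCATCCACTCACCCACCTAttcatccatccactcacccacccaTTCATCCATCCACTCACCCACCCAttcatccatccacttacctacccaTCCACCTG
5p, 27077 bp from CEP72, chr5:585278-585477: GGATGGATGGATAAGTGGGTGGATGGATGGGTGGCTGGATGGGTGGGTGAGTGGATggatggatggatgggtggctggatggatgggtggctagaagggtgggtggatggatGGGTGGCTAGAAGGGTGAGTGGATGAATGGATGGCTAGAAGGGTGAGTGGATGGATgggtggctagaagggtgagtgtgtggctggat

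The density of 6mA peaks was slightly higher at the chromosome ends than along the rest of the same chromosomes. It was 12.7, 13.2, 16 and 16.3 peaks per assembled Mb in the 3-Mb windows and 10.8, 11.9, 13.9 and 14.6 elsewhere. The windows were above the rest in each of the 4 libraries, by a ratio of 1.17, 1.11, 1.15 and 1.12. The mean log2 ratio was 0.19 ± 0.034 (SD, n = 4), a geometric mean ratio of 1.14 (p = 0.125, exact two-sided sign-flip permutation test over the libraries). That p is the smallest that 4 libraries can give, and the permutation test between the groups, with 6 assignments of the libraries, cannot go below 0.333, so no single comparison reported here could pass 0.05. All sign-flip and group p-values below are from these exact tests and are not adjusted.

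The excess was not greatest in the outermost sequence. Density over the 4 libraries was 12.6 peaks per Mb in the first 0.5 Mb from the end and 12.9 in the second, was 17.0 between 1 and 1.5 Mb and 16.9 between 3 and 3.5 Mb, outside the windows, and was 12.6 between 9.5 and 10 Mb. Just inside the 3-Mb limit, from 2.5 to 3 Mb, the mean was 15.2. Against the neighbouring sequence from 3 to 6 Mb the ratio was 1.01, a comparison chosen after seeing the data, and windows of 1 Mb gave a ratio of 0.994 to the rest of the chromosome.

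**Figure D1:**
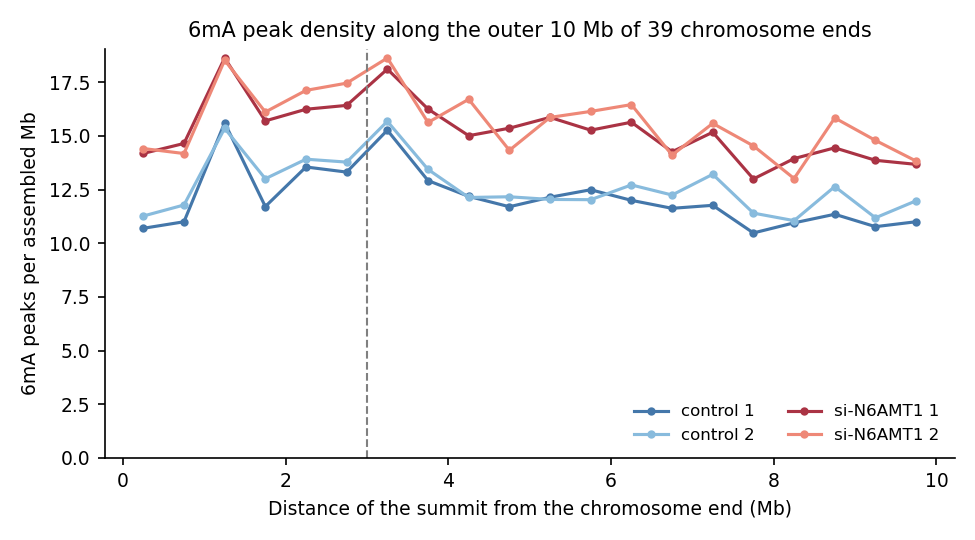
Density of 6mA peaks (peaks per assembled Mb, y axis) in bins of 0.5 Mb by distance of the summit from the chromosome end (x axis, Mb) over 39 ends, 1 line per library, with the 3-Mb limit dashed. Mean density was 12.6 in the outermost bin, 17.0 from 1 to 1.5 Mb and 16.9 from 3 to 3.5 Mb, and both si-N6AMT1 lines lie above the control lines.

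Ends differed far more among themselves than the windows differed from the rest. The densest was the end of 5p, with 30.4, 35.1, 42.5 and 38.8 peaks per Mb, followed by 9q with a mean of 27.2, 7q with 26.8 and 12q with 26.6. The sparsest was 16p, with 2.72, 2.38, 4.76 and 5.44 peaks per Mb, and then came 10p with a mean of 4.68 and 5q with 4.93. The means of 5p and 16p, picked here as the extremes of these same densities, were 36.7 and 3.83.

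The end of 5p holds TERT and the Iroquois homeobox genes IRX4 and IRX2, transcription factors of embryonic patterning, with long intergenic sequence between them, and 2 of the 3 highest-ranking regions above lie there. The end of 16p is the most GC-rich of the 39, at 56.7%, and holds the alpha globin cluster. GC content and density were only loosely related across the ends, with a Pearson r of 0.325 and a Spearman rho of 0.351 over 39 ends that share the same 4 libraries. The density of an end and that of the rest of its chromosome gave a Pearson r of 0.430 and a Spearman rho of 0.397.

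In all 4 libraries 22 ends were denser than the rest of their chromosome and 13 were sparser, and 4 were mixed. The same count for windows away from the ends is not reported here, so these counts have no background. Relative to its own chromosome, 18p stood highest, at 9.11 against 2.85 peaks per Mb, with 18q at 6.83. The sparsest relative to the rest were 11q, at a ratio of 0.310, and 5q, at 0.318, both on chromosomes whose other end was denser than the rest. The ends spread about as widely as ordinary sequence: the median end had 12.8 peaks per Mb (SD 7.81) and 835 windows of 3 Mb away from the ends had a median of 12.1 (SD 7.27). At the upper extreme, 4 of 39 ends exceeded the 95th percentile of these inner windows, 26.4 peaks per Mb. The pattern over ends was shared by the libraries, with a Pearson r of 0.960 to 0.978 between any pair of libraries over the 39 ends.

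Subtelomeric peaks were wider than other peaks. Their median width was 534, 509, 510 and 504 bp, against 446, 444, 442 and 441 bp in the rest of the chromosomes, a mean difference of 71.0 bp (p = 0.125, exact sign-flip test, wider in 4 of 4 libraries). Up to 400 bp lay 23.3% ± 2.3 of subtelomeric and 33.6% ± 1.56 of other peaks, and between 600 and 800 bp lay 16.2% ± 0.682 and 12.6% ± 0.187 (SD, n = 4). Peaks over 1000 bp made up 15.9, 14.7, 13.7 and 13.9% of subtelomeric peaks and 4.69, 4.57, 4.69 and 4.57% of the others (mean difference 9.95 percentage points ± 0.983, SD, n = 4, p = 0.125, exact sign-flip test). Over 2000 bp the shares were 1.71% ± 0.225 and 0.339% ± 0.0219.

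**Figure D2:**
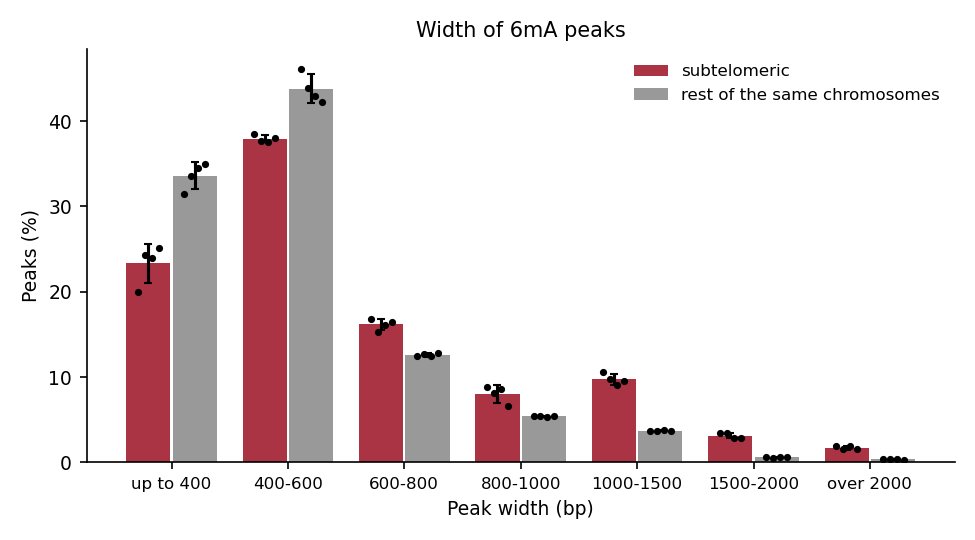
Share of 6mA peaks (%, y axis) by width class (x axis, bp) for subtelomeric peaks and for the rest of the chromosomes. Bars are means of 4 libraries with SD, and points are libraries. Above 1000 bp the subtelomeric bars are the higher ones in each class.

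Wide peaks were unevenly spread over the ends. Pooled over the libraries, 41 of 119 peaks at 2q were over 1000 bp (34.5%), 36 of 132 at 16q (27.3%) and 58 of 227 at 11p (25.6%), whereas 0 of 112 were at 15q, 0 of 100 at 3p and 0 of 79 at 19q. These peaks are not independent, since the same region is often counted in several libraries.

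Subtelomeric peaks also had a higher fold enrichment, that is, pileup divided by local background at the summit, each with 1 added. Its median was 8.54, 7.62, 7.71 and 7.28, against 7.34, 6.89, 6.89 and 6.63 elsewhere (mean difference 0.851, p = 0.125, exact sign-flip test). Both terms of the ratio differed. The median pileup was 18, 19, 20 and 20 fragments against 17, 18, 18 and 19. The median background was 1.09, 1.39, 1.59 and 1.67 fragments against 1.29, 1.70, 1.70 and 1.81, and it sat at its genome-wide minimum for 48.6, 49.5, 36.2 and 38.5% of subtelomeric peaks but for 24.9 to 26.4% of the others. How much of the fold difference the lower background makes was not tested.

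Regions near the ends recurred more often between libraries. Peaks of the 4 lists that overlapped by at least 1 bp were merged, which gave 2806 subtelomeric regions. Of these, 857 (30.5%) were called in all 4 libraries, where the background over all 72537 regions was 16.7%, and 1119 (39.9%) were called in a single library, where the share elsewhere was 49.8%. Subtelomeric peaks were also stronger, as given above, and the part of signal strength in their recurrence was not tested. Asking for an overlap of 50% of each peak lowered the share called in all 4 to 27.5%. The share over all regions under that rule is not reported here.

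**Figure D3:**
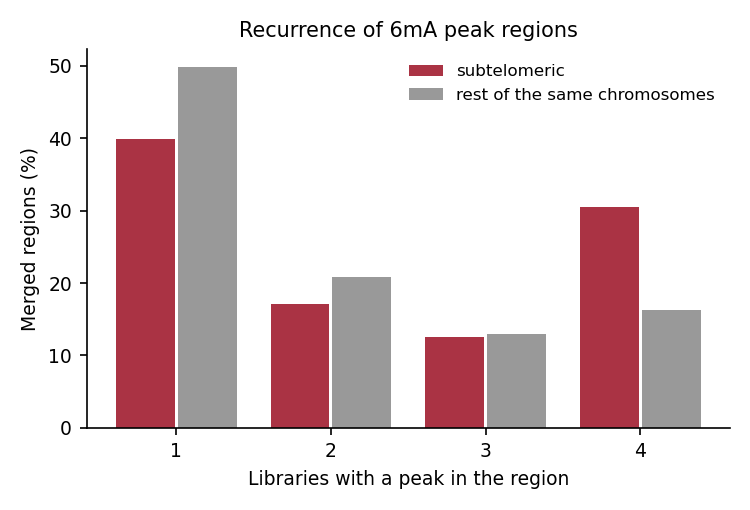
Share of merged 6mA regions (%, y axis) by the number of libraries with a peak in the region (x axis, 1 to 4), for 2806 subtelomeric regions and 67136 regions in the rest of the chromosomes. The subtelomeric share is 30.5% at 4 libraries against 16.3%, and 39.9% at 1 library against 49.8%.

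At the summits, subtelomeric peaks lay on sequence that was less GC-rich than the ends they came from. Mean GC content in the 200 bp around the summit was 44.1, 43.7, 43.5 and 43.1%, while the windows as a whole were 48.4% GC. Summits elsewhere were at 37.9, 37.5, 38 and 37.6% in sequence of 40.7% GC. CG dinucleotides, the target of ordinary cytosine methylation, numbered 1.74 per 200 bp at subtelomeric summits and 4.06 in windows tiled over the same sequence, a ratio of 0.428. At the other summits there were 1.21 against 1.89 in tiled windows, a ratio of 0.641.

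Peaks were scarce in exons and promoters. Exons made up 5.67% of the subtelomeric windows but held 1.04, 1.26, 1.32 and 1.24% of the summits, and promoters, taken as 1000 bp to either side of a transcript start, made up 6.39% and held 3.33, 2.93, 3.13 and 2.64%. Relative to their share of sequence these were 0.214 and 0.470, and elsewhere in the genome 0.242 and 0.716. Introns held a mean of 55.3% of summits for 53.3% of sequence, and intergenic sequence 40.5% for 34.6%. None of the 4 shares differed between si-N6AMT1 and control by more than 0.684 percentage points (p of 0.333 or 0.667, exact permutation tests).

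The hexamer of the telomere was the rarest of the 6 motifs searched and the one furthest above its share of the sequence around it. At least 2 copies of TTAGGG in a row, on either strand, stood within 200 bp around 15, 14, 18 and 14 subtelomeric summits, or 1.04, 0.931, 0.988 and 0.753%. They were in 0.0357% of tiled subtelomeric windows, which is a 26.0-fold difference. Elsewhere they were in 0.0277% of summits and 0.00265% of tiled windows, a 10.5-fold difference. In the first 0.5 Mb from the end the shares were 6.42, 5.58, 4.84 and 3.17% of summits against 0.154% of tiled windows. Groups did not separate: the mean was 0.985% ± 0.0768 in control and 0.871% ± 0.166 in si-N6AMT1 (SD, n = 2 each, p = 0.667, exact permutation test).

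These summits fell into 22 merged regions at 18 ends, 14 of them within 500 kb of the end. Of the 22 regions, 12 were called in all 4 libraries, where the share was 30.5% of subtelomeric regions and 16.7% of all regions. Over the rest of the autosomes there were 14 regions with such a summit. The region at 9q printed above, chr9:141127299-141128047, lies 85.8 kb from the end and had fold enrichments of 17.3, 20.7, 15.1 and 21.8, among the strongest of the group. The region at 5p, chr5:49547-50970, reached 20.1, 15.3, 13.4 and 11.1 at 50.3 kb from the end. Other bases interrupt the copies in both, and the printed windows matched themselves at a lag of 6 bp at a share of 0.717 of positions at 9q and 0.593 at 5p.

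TTAGGG regions were not limited to the terminal sequence. The region printed for 2q, chr2:241552938-241553826, is 1646 kb from the end in an intron shared by CAPN10, a calpain protease gene, and GPR35, an orphan receptor gene. Its fold enrichments were 13.2, 9.35, 7.87 and 7.12. At 12q a region 34.0 kb from the end, chr12:133817718-133818199, was the second nearest to any end among those called in all 4 libraries, after one 31.4 kb from the end of 8p, with fold enrichments of 7.32, 8.46, 10.8 and 6.49.
12q, 5497 bp from ANHX, chr12:133817860-133818059: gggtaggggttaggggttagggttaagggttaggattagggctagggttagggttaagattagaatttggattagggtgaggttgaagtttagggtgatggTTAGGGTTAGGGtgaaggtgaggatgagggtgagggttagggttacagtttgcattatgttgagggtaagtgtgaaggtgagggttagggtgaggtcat

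Imperfect tandem repeats were frequent at subtelomeric summits. A summit window was called a tandem repeat where at least 0.8 of its bases matched the base one period further on, for some period from 2 to 60 bp. This held for 4.92, 4.65, 4.56 and 4.46% of subtelomeric summits, for 1.31% of tiled subtelomeric windows, and for 2.55, 2.3, 2.35 and 2.28% of summits elsewhere (difference from elsewhere 2.28 percentage points, p = 0.125, exact sign-flip test). With the match lowered to 0.6, a limit set after the values were seen, the shares were 50.7, 46.5, 42.8 and 41.6% of subtelomeric summits, 3.20% of tiled subtelomeric windows and a mean of 20.02% of summits elsewhere. With the match raised to 0.9, subtelomeric summits were at 0.486% and tiled windows at 0.738%, so nearly perfect arrays were not more frequent at summits than around them. The ends are themselves rich in such repeats, and tiled windows elsewhere held them at 0.0949% at a match of 0.8 and 0.470% at 0.6. Relative to their own tiled windows, subtelomeric summits were thus 3.54-fold higher at 0.8 and 14.2-fold at 0.6, and summits elsewhere 25-fold and 42.6-fold.

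The period of best match also differed, though it can be a multiple of a shorter repeat unit. Of 307 subtelomeric summits called tandem at 0.8, 51.1% had a period of 31 to 60 bp, 23.5% of 16 to 30 bp and 17.6% of 4 bp. Of 3120 such summits elsewhere, 62.5% had a period of 4 bp, 16.7% of 31 to 60 bp and 9.46% of 16 to 30 bp. Longer periods could be built of short words, as in the 20-bp period at 9q (chr9:139016773-139017678), made mostly of TTGG and ATGG. That region had fold enrichments of 19.2, 15.3, 17.1 and 16.6. The summit with a 56-bp period near CEP72, a centrosome protein gene, sits in a region of 2828 bp with fold enrichments of 17.1, 16.1, 11.2 and 9.75.

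Wide peaks and tandem repeats went together. Among subtelomeric peaks over 1000 bp, of which there were 230, 221, 250 and 259, a summit self-match of at least 0.6 was found in 70.9, 67.0, 64.0 and 63.3%. Among narrower subtelomeric peaks it was found in 46.9, 42.9, 39.4 and 38.1%, so every library had the higher share in the wide class. The same order held outside the windows, at 42.6, 38.3, 36.0 and 35.5% of wide and 21.4, 18.6, 18.9 and 17.6% of narrower peaks. Purine runs went the other way, with 20 purines in a row at 2.17, 4.98, 2.00 and 3.09% of wide and 21.8, 21.4, 27.0 and 26.4% of narrower subtelomeric peaks. Outside the windows, purine runs stood at 19.9 to 25.9% of the wide peaks and 38.1 to 43.6% of the narrower ones.

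Among simpler repeats, CA was frequent and purine runs were scarcer than elsewhere. At least 6 copies of CA in a row, on either strand, were found at 10.8, 10.6, 9.23 and 10.3% of subtelomeric summits and at 0.882% of tiled subtelomeric windows. Elsewhere they were found at a mean of 7.71% of summits and at 0.976% of tiled windows. Purine runs showed the opposite order: 20 purines in a row, or 20 pyrimidines on the other strand, were found at 18.7, 19, 23.6 and 23.2% of subtelomeric summits against 40.5, 37.3, 42.8 and 40.3% elsewhere (difference -19.1 percentage points, p = 0.125, exact sign-flip test). Tiled windows held them at similar shares in both settings, 4.24 and 4.72%. At least 4 runs of at least 3 G with 1 to 7 bases between them, the pattern of a possible G-quadruplex, stood at a mean of 6.69% of subtelomeric summits and 6.03% of tiled windows. Elsewhere the pattern stood at a mean of 4.92% of summits and 2.02% of tiled windows.

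**Figure D4:**
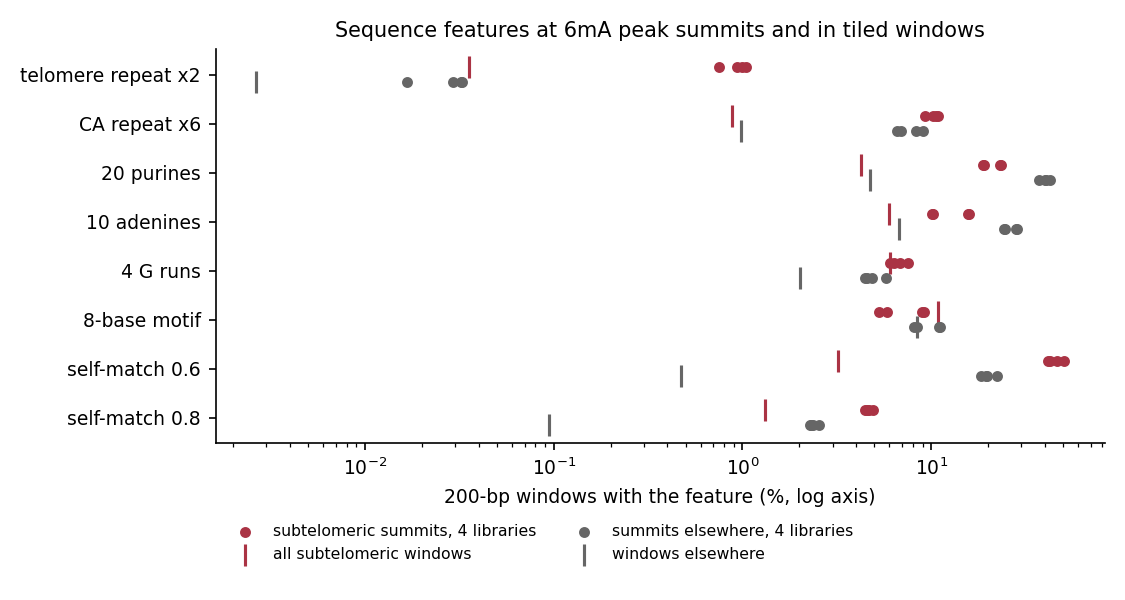
Share of 200-bp windows (%, log axis) that hold each sequence feature, with points for summits in each of 4 libraries and ticks for tiled windows, in red for subtelomeric and grey for other sequence. The telomere repeat lies at a mean of 0.928% of subtelomeric summits against 0.0357% of tiled windows, the 8-base motif is CAGGCTGG, and the self-match rows are tandem repeats at limits of 0.6 and 0.8.

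More peaks were called at the ends in the si-N6AMT1 libraries than in control. Density was 12.9 ± 0.379 peaks per Mb in control and 16.2 ± 0.236 in si-N6AMT1 (SD, n = 2 each), a difference of 3.22, with both si-N6AMT1 libraries above both control libraries (p = 0.333, exact permutation test). The same held across the autosomes, where the 2 control lists held 29495 and 32295 peaks and those of si-N6AMT1 held 37563 and 39451. The genome-wide background level of the libraries had the same order as their number of peaks, and its part in the difference was not tested. With every list reduced to equal numbers of its strongest peaks, the difference was 0.936 peaks per Mb.

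Relative to the rest of the chromosomes, whether the ends separated the groups depended on the number of peaks kept. With all peaks, the log2 density ratios were 0.23 and 0.16 for the control libraries and 0.20 and 0.16 for the others, which interleave, and the difference was -0.0076 (p = 1, exact permutation test). With equal numbers of the strongest peaks the difference was 0.087, and both si-N6AMT1 libraries lay above both control libraries (p = 0.333, exact permutation test). At 32 of 39 ends (82.1%) both si-N6AMT1 densities exceeded both control densities, and the background for 3-Mb windows away from the ends was 65.0%. At the other 7 ends the groups overlapped, and there were 0 ends with the reverse order. The shares of inner windows with overlap or with the reverse order are not reported here, so these 2 counts have no background. The largest ratio between the group means was at 16p, where the control densities of 2.72 and 2.38 peaks per Mb stood against 4.76 and 5.44. These are small counts, 8 and 7 peaks against 14 and 16, at the sparsest of the 39 ends.

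Few regions were limited to one group. Of the 2806 subtelomeric regions, 55 (1.96%) were called in both control libraries and in neither si-N6AMT1 library, where the background over all regions was 2.62%. In the other direction 146 (5.20%) were called in both si-N6AMT1 libraries only, where the background was 5.86%. Both shares were near their background. With equal numbers of peaks the subtelomeric shares were 3.31 and 4.05%. The shares over all regions with equal numbers are not reported here, so these 2 values have no background.

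The strongest regions of either kind lay in introns or between genes. Among those limited to control, chr7:157085011-157085471, at 7q and 23117 bp from UBE3C, had fold enrichments of 12.7 and 9.74. Another, chr7:156980034-156980478, in an intron of the ubiquitin ligase gene UBE3C, had 9.69 and 10.3. Among those limited to si-N6AMT1, chr17:78901223-78901694, in an intron of RPTOR, which encodes the mTORC1 scaffold raptor, had 12.8 and 9.50. Another, chr17:79487774-79488280, in an intron of the actin gene ACTG1, had 9.52 and 9.02. The GC content of these summits was 43.5 and 51.5% for the control pair and 48.5 and 29% for the si-N6AMT1 pair. One region of either kind is printed, as examples that do not stand for the others, with capitals for at least 6 copies of TG in a row.
7q, control only, chr7:157085081-157085280: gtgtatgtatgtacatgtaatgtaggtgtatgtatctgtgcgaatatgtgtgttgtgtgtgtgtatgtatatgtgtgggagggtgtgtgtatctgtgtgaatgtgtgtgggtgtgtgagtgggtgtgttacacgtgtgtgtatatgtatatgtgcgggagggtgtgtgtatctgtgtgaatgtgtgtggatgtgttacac
17q, si-N6AMT1 only, intron of RPTOR, chr17:78901405-78901604: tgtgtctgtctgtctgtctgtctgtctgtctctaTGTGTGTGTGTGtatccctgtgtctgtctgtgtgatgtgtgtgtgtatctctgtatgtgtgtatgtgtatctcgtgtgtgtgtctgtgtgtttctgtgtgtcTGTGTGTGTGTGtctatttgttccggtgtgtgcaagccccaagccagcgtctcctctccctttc

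Adenine-rich summits made up more of the subtelomeric peaks in both si-N6AMT1 libraries than in either control library. At least 10 adenines in a row, on either strand, were found at 10.2 and 10.04% of control summits and at 15.7 and 15.9% of those of si-N6AMT1, a difference of 5.67 percentage points (p = 0.333, exact permutation test). The 8-base motif CAGGCTGG, on either strand, was found at 5.82 and 5.32% of control and 8.95 and 9.14% of si-N6AMT1 summits, and in 10.8% of tiled windows. Subtelomeric summits thus held this motif less often than the sequence around them, at a ratio of 0.676. Elsewhere it was at a mean of 9.65% of summits and 8.36% of tiled windows, a ratio of 1.15. Runs of 20 purines had means of 18.9% ± 0.216 and 23.4% ± 0.264. For each of these the 2 control libraries lay close together and below both si-N6AMT1 libraries. Each group has a single input library, and the part of the input in this closeness was not tested.

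The rest of the chromosomes differed in the same direction for adenine runs and CAGGCTGG, with adenine runs at 24.6 and 24.4% of control summits and 28.2 and 28.5% of those of si-N6AMT1, a difference of 3.86 percentage points. The difference between the subtelomeric and the other change was 1.81 percentage points (p = 0.333, exact permutation test). Keeping equal numbers of the strongest peaks left subtelomeric differences of 4.11 percentage points for adenine runs, 2.15 for CAGGCTGG and 4.47 for purine runs. Elsewhere CAGGCTGG was at 8.11 and 8.38% in control against 11.1 and 10.98% in si-N6AMT1, but for purine runs the groups overlapped, at 40.5 and 37.3% against 42.8 and 40.3% (p = 0.667, exact permutation test). Tandem repeats at subtelomeric summits, at a self-match of 0.6, were at 42.8 and 41.6% in si-N6AMT1 against 50.7 and 46.5% (p = 0.333, exact permutation test).

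Subtelomeres are gene-dense, and fewer of their genes held a peak. The windows touched 1662 protein-coding genes, 14.6 per Mb against 6.83 elsewhere, with a median length of 16.3 kb against 28.9 kb. A summit lay in 21.2, 21.8, 25 and 25.3% of them, and in 30.5, 31.4, 35 and 35.6% of genes elsewhere. No library had a summit in 1129 of them (67.9%), and 269 (16.2%) had one in all 4, against 21.3% elsewhere. Gene length differs as given, and its part in these shares was not tested.

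Of 29 genes of known roles near the ends that were looked up by name, 12 held a summit in all 4 libraries, 15 in none and 2 in some. Over all 1662 genes the shares were 16.2% in all 4 and 67.9% in none. The list was composed by role and includes a class of long neuronal and signalling genes, so its counts do not stand for subtelomeric genes. TERT, the catalytic subunit of telomerase, held 1 region in each library, chr5:1275433-1276951 of 1519 bp in an intron, with fold enrichments of 10.7, 9.73, 11.1 and 8.02. It is an array whose best lag is 38 bp, and is printed here because it is the summit in the gene of telomere upkeep.
5p, intron of TERT, chr5:1276586-1276785: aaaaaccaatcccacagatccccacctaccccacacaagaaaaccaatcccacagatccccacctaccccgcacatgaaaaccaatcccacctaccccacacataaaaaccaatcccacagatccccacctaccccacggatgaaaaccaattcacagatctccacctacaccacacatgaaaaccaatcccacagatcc

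In the imprinted growth cluster of 11p, IGF2, a fetal growth factor gene, held 1 summit in each library, in an exon, with fold enrichments of 6.84, 7.19, 8.28 and 9.10. The potassium channel gene KCNQ1 held 4, 6, 3 and 5. INS, TH, ASCL2 and CDKN1C, which are short genes of insulin, catecholamine synthesis, trophoblast fate and cell cycle arrest, held none. Among the secreted mucins, which lie side by side on 11p and each have a large repeat-coding exon, MUC6 held 2, 2, 2 and 3 summits and MUC2, MUC5AC and MUC5B held none. The wider MUC6 region, chr11:1015993-1018642, lies over an exon with fold enrichments of 13.5, 10.2, 10.5 and 9.69.

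Summits were likewise absent from the alpha globin genes HBZ, HBA2 and HBA1, from the signalling oncogenes HRAS and FGFR3, from the tumour suppressors AXIN1 and TSC2, and from FRG2 of the repeat-linked 4q35 region. The kinase gene STK11, another tumour suppressor, held 3, 1, 3 and 1 within its annotated span, in 4 regions that all lie outside the transcripts used for the elements and are therefore intergenic there. FRG1 held 1, 1, 0 and 0, at different positions in each control library. SHANK3, a synaptic scaffold gene, held 0, 0, 0 and 1. The genes without a summit were mostly short, up to 70.8 kb for MUC5AC. These lengths are annotated spans and include any assembly gaps, where no peak can be called. At 11p, which holds the mucins, 2.89 Mb of the 3-Mb window was assembled.

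The 5 genes with the most summits were 247 to 1049 kb long. PTPRN2, a receptor phosphatase gene of secretory granules at 7q, held 34, 32, 40 and 41 summits in 1049 kb, which merged into 45 regions of which 29 were called in all 4 libraries. CDH4, a cadherin gene at 20q, held 25, 24, 24 and 26 in the 490 kb inside the window, with 22 of 28 regions in all 4. ERC1, a gene of an active-zone scaffold protein at 12p, held 19, 16, 21 and 23, but 7 of its 42 regions were called in all 4 and 23 in a single library. The shares called in all 4 were 64.4% for PTPRN2, 78.6% for CDH4 and 16.7% for ERC1. They were 30.5% over subtelomeric regions and 16.7% over all regions.

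The neuronal calcium channel gene CACNA1B held 7, 9, 13 and 10 summits, and DLGAP2, a postsynaptic scaffold gene, held 9, 9, 8 and 12. ADARB2, of the RNA editing family, held 7, 5, 8 and 8, the histone methyltransferase gene EHMT1 4, 8, 9 and 8 (with 3 of its 11 regions outside those transcripts), the transcription factor gene MYT1L 5, 3, 5 and 3, and the 207 kb of CSMD1 inside the window 3, 5, 5 and 4. DIP2C held 1 in each library in 415 kb, an average of 2.41 per Mb, where ADARB2 on the same arm had 12.6.

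By density among genes of at least 50 kb the leaders were NACC2, SLC6A3 and TMEM255B. NACC2, a transcriptional repressor gene at 9q, held 5, 7, 9 and 8 summits, 81.7 per Mb. SLC6A3, the dopamine transporter gene at 5p, held 3, 3, 5 and 3, 66.5 per Mb, and the 3 of its regions called in all 4 libraries are each tandem-like, with a self-match of 0.683 to 0.730. TMEM255B at 13q held 4, 4, 4 and 3, 64.9 per Mb, and its region chr13:114477344-114478409 reached fold enrichments of 23.9, 19.5, 19.3 and 17.4, near those of the highest-ranking regions. The sequences show what an intronic array of each gene consists of, with capitals and lower case alternating by 4 bp in SLC6A3 and by 16 bp in TMEM255B.
5p, intron of SLC6A3, chr5:1440351-1440550: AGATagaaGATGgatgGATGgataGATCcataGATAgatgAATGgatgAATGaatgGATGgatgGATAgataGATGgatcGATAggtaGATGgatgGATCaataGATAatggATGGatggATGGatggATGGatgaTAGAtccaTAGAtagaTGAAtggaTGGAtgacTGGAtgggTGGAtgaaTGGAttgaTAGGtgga
13q, intron of TMEM255B, chr13:114477591-114477790: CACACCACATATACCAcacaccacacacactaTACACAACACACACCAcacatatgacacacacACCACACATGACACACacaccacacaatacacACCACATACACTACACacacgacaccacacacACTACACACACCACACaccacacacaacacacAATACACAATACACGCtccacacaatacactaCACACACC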

How the data were processed

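6mA-IP-seq peak lists of 4 immunoprecipitated libraries (2 control, 2 si-N6AMT1) of MDA-MB-453 cells were used. The 2 input libraries, a single one per group, were not analysed here. As the study's methods state, the authors trimmed raw reads with the Solexa pipeline, used Trimmomatic to filter low-quality reads, bowtie2 2.3.5 for alignment to hg19, SAMtools 1.9 for removal of duplicates, and called peaks per library with MACS2 at p below 1e-05. The deposited lists give for each peak a score, the fold enrichment (a ratio of pileup to background), −log10 p and −log10 q, and the position of the summit. The authors' comparison of the groups and their consistent peaks were not used.

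From these values the whole pileup and the background of each peak were recovered (100% of peaks). Densities used assembled sequence, without gaps. Chromosome ends, elements (GENCODE annotation lifted to GRCh37) and 200-bp summit windows were read from the GRCh37 genome, with all 200-bp tiles of the windows and every 20th tile elsewhere as the sequence background. Peaks overlapping by 1 bp were merged into regions. Tests were exact permutations over libraries. Regions named are the 3 ranking highest, by the lowest percentile of −log10 q, among those called in all 4, in control only and in si-N6AMT1 only, and those nearest an end, and some of them are not reported here. TTAGGG, tandem-repeat and gene regions shown were added after values were seen. Named genes are a list by role, the 5 with most summits and the 3 densest of at least 50 kb. H19 was not matched as protein-coding. Members and lists were chosen with earlier results of these data known. Scripts in Python 3.11.15 with scipy 1.17.1 (permutation tests) and numpy 2.4.6 were tested on simulated data. Alternatives were windows of 1 and 5 Mb, equal numbers of peaks, only peaks at −log10 q of 5 or more, gaps included, GC weighting, 50% overlap, wider promoters, other self-match limits and leaving out each library.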

Additional observations from a re-analysis of the deposited data

How the results depend on the processing

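With 2 libraries per group, no test could pass 0.05, so the alternatives bear on sizes and directions. The ratio of subtelomeric density to the rest reversed to 0.994 with windows of 1 Mb and ranged from 1.01 to 1.22 in the other alternatives, with 1.11 after weighting the rest to the GC content of the windows and 1.13 to 1.15 without any 1 library. The group difference in log2 ratio reversed to 0.032 with windows of 1 Mb and to 0.087 with equal numbers of peaks, where both si-N6AMT1 libraries were above both control libraries, and ranged from -0.043 to 0.028 when a library was left out, positive without control replicate 1 or si-N6AMT1 replicate 2. The group difference in density was 0.936 with equal numbers of peaks and 2.95 to 3.49 without any 1 library. Same-numbered replicates shared only a number (correlation of their deviations over the ends 0.0736), and with the replicate block the difference was still 3.22 (p = 0.5, exact, the smallest that 2 pairs can give).

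The share of regions called in all libraries was 24.4% with windows of 1 Mb and 27.5% with 50% overlap, and 36.7 to 38.2% with 3 libraries, where fewer have to agree. Regions of control only were 3.31% with equal numbers and 4.58 to 9.05% with 1 library left out, and regions of si-N6AMT1 only were 4.05% and 9.84 to 22.5%. For all these shares of subtelomeric regions, the shares over all regions under the same alternatives are not reported here. Promoters from 2000 bp upstream to 500 bp downstream held 5.02% of summits, leaving 38.8% intergenic. Tandem repeats were at 0.486% with a self-match of 0.9 and 45.4% with 0.6. The pooled rest, the 3 to 6 Mb neighbour, the self-match of 0.6 and all alternatives for motif shares and wide peaks were chosen after seeing the data. The cause of these movements was not tested where the alternative's own construction does not give it. Depth per library is unknown, so the absence of a peak in a region is no evidence that the region lacked 6mA.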
